A study of Mus musculus with 2 samples.

Results

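The transcripts described here come from 45 genes of mitosis, the stage of the cell cycle in which duplicated chromosomes are separated and the cell divides. The genes were taken by name (cyclins, mitotic kinases, checkpoint and kinetochore proteins, spindle motors and cytokinesis factors), and each was matched to the gene symbol in both deposited tables. All 45 were found among the 24346 symbols of each table, and in 39 of them the mean FPKM of the 2 libraries was 1 or more. FPKM counts the fragments of a gene, divided by the length of its transcript in kilobases and by the size of the library. RNA was sequenced from CD4+ T cells that had been sorted from mouse spleen at day 14. Both libraries carry the label HFD-MI, and the series title speaks of myocardial infarction. The labels give a group treated with probucol, an antioxidant that also lowers blood cholesterol, and an untreated group. Each group had 1 library; the number of animals behind a library, any pooling, and genotype, strain, sex and age of the animals are not stated in the labels. The word HypoE stands in the headers of both tables, and no label explains it.

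Entry into mitosis is driven by the kinase CDK1 bound to cyclin A or cyclin B, and further kinases of the Polo and Aurora families set up the spindle. The spindle checkpoint holds the cell until every chromosome is attached through its kinetochore. The anaphase-promoting complex, a ubiquitin ligase, then marks cyclin B and the inhibitor of separase for destruction. Most of these genes are transcribed mainly in late S, G2 and M phase, so in a mixed population their RNA comes mainly from the dividing cells. Resting T cells hold little of it, and activated T cells divide in the spleen after meeting antigen.

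Single libraries have no replicate spread, so no test was possible, and every difference below is between these 2 libraries. An estimated 10348799 fragments in genes stood behind the probucol library and 10394197 behind the untreated library. The 95% intervals given with a ratio are exact (Clopper-Pearson) and cover counting error only. They include copies made by PCR and leave out differences between animals, sorts and preparations. The sorted cells carried the RNA of CD4+ T cells: Cd4 was at 334 FPKM in the probucol library and 284 FPKM in the untreated library, while Cd3e, part of the CD3 signalling complex, was at 478 and 494 FPKM. The 7 T cell identity genes found, of 10 sought, summed to 4125 and 4147 FPKM. The CD8 chain genes, markers of the other main T cell lineage, stood apart: Cd8a was at 0.139 and 0.276 FPKM, while Cd8b1 was at 15.9 and 19.6 FPKM. Genes of other cell types were also present and are given below, and in bulk RNA fewer cells of a type and less RNA per cell cannot be told apart.

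Mitosis genes were mostly lower in the probucol library. Of the 39 genes with a mean FPKM of 1 or more, 31 were lower and 8 were higher, while 47.3% of all 10663 genes at that level were lower. The ratio used for these counts was taken on FPKM + 1 as log2 of probucol over untreated, which understates differences of low genes. On this scale 13 of the 39 genes were at least 1.5-fold lower, against 5.53% of all genes, and 0 were at least 1.5-fold higher, against 5.99%. At least 2-fold lower were 3 genes, Ccnb2, Melk and Pbk, where the share over all genes was 1.98%, and 0 were at least 2-fold higher, where it was 1.62%. The median log2 ratio of the 39 genes was -0.37, and that of all genes was 0.02. Among the 9363 genes with mean levels between those of the lowest and the highest of the 39, the median was 0.04, with 527 at least 1.5-fold lower and 567 at least 1.5-fold higher.

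**Figure D1:**
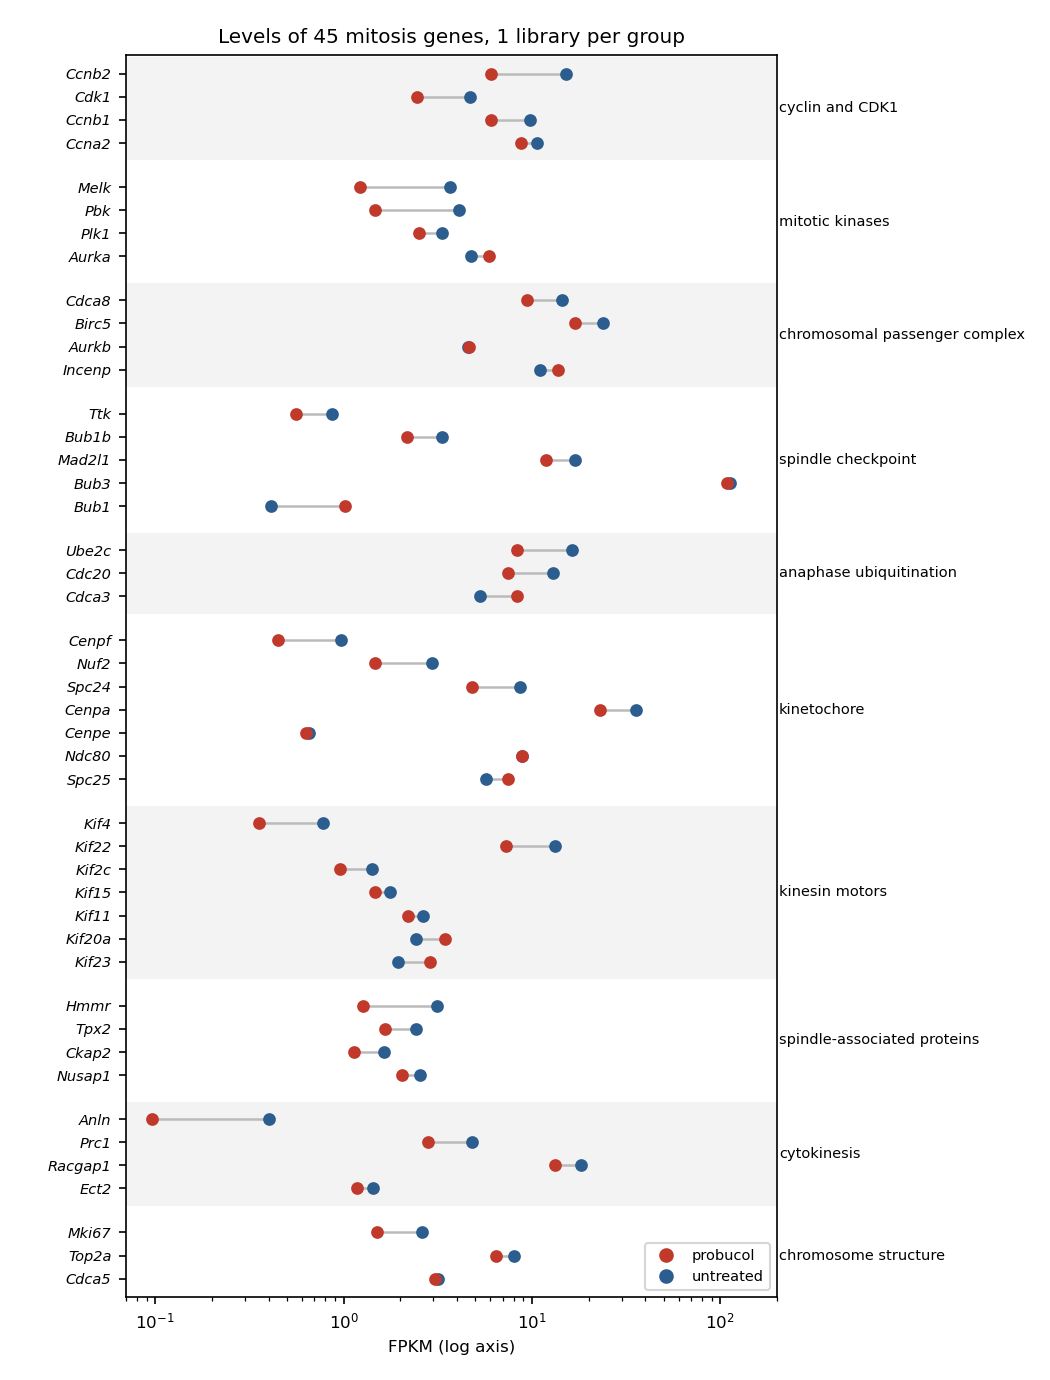
FPKM of each of the 45 mitosis genes (log axis) in the probucol library (red) and the untreated library (blue), grouped by role, 1 library per group. The red point lies to the left of the blue point for most genes, with Ccnb2 at 6.09 and 15.1 FPKM, and the points of Bub3, at 108 and 113 FPKM, stand far to the right of the others.

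The same direction was seen on either side of a mean of 5 FPKM. Of the 20 genes with a mean of 1 to 5 FPKM, 17 were lower (44.4% of all genes there), with a median log2 ratio of -0.31. Of the 19 genes at 5 FPKM or more, 14 were lower (48.3% of all genes there), with a median of -0.46. All genes at 1 to 5 FPKM had a median of 0.06, and all genes at 5 FPKM or more had one of 0.01. The counting interval of the plain FPKM ratio lay wholly below 1 for 22 of the 39 genes and wholly above 1 for 4 (Incenp, Cdca3, Kif20a and Kif23). Over the 10269 genes with an interval, the shares were 24.2% below and 29.0% above. The median number of fragments behind the 39 genes was 90 with probucol and 116 untreated, so the interval of a single gene was often wide.

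**Figure D2:**
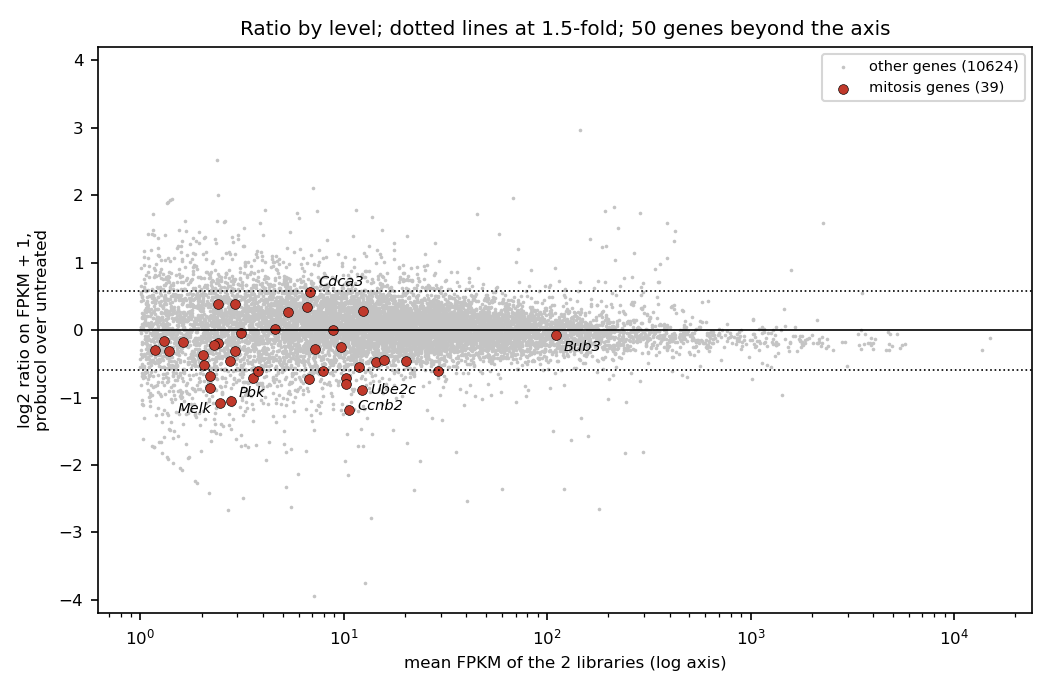
Log2 ratio on FPKM + 1 (probucol over untreated) against the mean FPKM of the 2 libraries (log axis) for the 39 mitosis genes (red) and all other genes at a mean of 1 or more (grey), with dotted lines at 1.5-fold. The red points lie mostly under 0 at all levels, 13 of them at or under the lower dotted line and 0 at or above the upper line.

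Summed over all 45 genes, the level was 326 FPKM in the probucol library and 415 FPKM in the untreated library, a ratio of 0.788. Bub3 alone made up 108 and 113 FPKM of these sums. Without it the sums were 219 and 302 FPKM, a ratio of 0.725. In estimated fragments, which count long transcripts for more, the ratio without Bub3 was 0.745 (95% counting interval 0.717 to 0.773).

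The promoters of these genes share sequence features that did not enter the choice of genes. Many mitotic genes are known to carry a cell cycle homology region (CHR), which the DREAM and MuvB complexes bind, near CCAAT boxes, which the factor NF-Y binds. RefSeq promoter windows (assembly GRCm38.p6, the assembly that mm10 names) of 300 bases, from 250 before to 50 after the transcription start, were found for 38 of the 45 genes, leaving Ccna2, Pbk, Aurkb, Incenp, Spc24, Kif20a and Tpx2. A CHR, searched as TTTGAA or TTCGAA on both strands, lay within 50 bases of the start in 28 of the 38 windows (73.7%) and in 5.31% of all 27025 windows. Among 8132 windows of genes with a mean FPKM of 1 or more, the share was 3.31%. The sequence CCAAT, on either strand, was in 28 windows (73.7%) against 38% of all, and 20 windows (52.6%) held at least 2 of them against 12.1% of all. Both a CHR within 50 bases of the start and a CCAAT were in 24 windows (63.2%), against 2.30% of all. The E2F-like sequences TTCCCGCC or TTTGGCGC, on either strand, were in 1 window, that of Kif15 (2.63%), against 2.78% of all. Of the 8132 windows of genes with a mean FPKM of 1 or more, 39.7% held a CCAAT and 15.6% at least 2. A CHR within 50 bases of the start with a CCAAT was in 1.64% of these, and an E2F-like sequence in 5.35%. CHR and CCAAT matches overlapped in 1 of the 38 windows, and a match is a description of the sequence, not of binding.

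Of the genes shown here as full upstream stretches, Cdk1 and Cdc20 were among the lower genes, while Top2a and Kif11 differed less between the libraries. Each line gives the 100 bases before the RefSeq start, 5′ to 3′ on the strand of the gene, with CHR and CCAAT matches on either strand in capitals (a CCAAT on the other strand reads as its reverse complement, and so does a CHR). Cdc20 is chr4:118437344-118437443 on the minus strand, Cdk1 is chr10:69352913-69353012 on the minus strand, Top2a is chr11:99024190-99024289 on the minus strand, and Kif11 is chr19:37376282-37376381 on the plus strand.
Cdc20: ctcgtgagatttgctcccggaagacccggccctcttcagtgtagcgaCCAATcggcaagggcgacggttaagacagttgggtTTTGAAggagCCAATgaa
Cdk1: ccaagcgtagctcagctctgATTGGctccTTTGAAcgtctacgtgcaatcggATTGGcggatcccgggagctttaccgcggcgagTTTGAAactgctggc
Top2a: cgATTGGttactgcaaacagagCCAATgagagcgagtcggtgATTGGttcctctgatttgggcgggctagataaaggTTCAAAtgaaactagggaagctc
Kif11: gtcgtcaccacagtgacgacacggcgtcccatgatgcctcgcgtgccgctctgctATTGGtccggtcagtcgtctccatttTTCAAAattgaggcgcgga
In each of these 4 genes the last CHR began within 50 bases of the RefSeq start. GENCODE places some starts further upstream: 26 of the 100 bases of the Cdk1 stretch, with its last CHR, and 9 of those of Cdc20 lie inside the GENCODE gene, and 0 of those of Top2a and Kif11.

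A CHR stood near the RefSeq start in genes of either direction, which the next lines show with 30 bases around the CHR (capitals). Ccnb2 (chr9:70421533-70421562, minus strand), Ube2c (chr2:164769888-164769917, plus), Kif22 (chr7:127042420-127042449, minus), Hmmr (chr11:40733412-40733441, minus) and Cenpa (chr5:30666890-30666919, plus) were at least 1.5-fold lower. Bub3 (chr7:131560315-131560344, plus) and Cdca5 (chr19:6085076-6085105, plus) were nearly equal in both libraries. Aurka (chr2:172370521-172370550, minus), Spc25 (chr2:69206172-69206201, minus), Kif23 (chr9:61946780-61946809, minus) and Cdca3 (chr6:124830194-124830223, plus) had ratios above 1.
Ccnb2: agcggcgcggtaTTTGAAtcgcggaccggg
Ube2c: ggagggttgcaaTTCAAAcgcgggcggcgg
Kif22: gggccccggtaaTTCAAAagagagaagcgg
Hmmr: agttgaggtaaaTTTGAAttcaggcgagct
Cenpa: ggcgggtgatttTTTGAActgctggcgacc
Bub3: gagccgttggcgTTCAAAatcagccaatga
Cdca5: gcaaTTTGAAcgTTTGAAgcagcaaagttc
Aurka: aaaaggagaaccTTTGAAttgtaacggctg
Spc25: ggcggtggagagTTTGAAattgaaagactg
Kif23: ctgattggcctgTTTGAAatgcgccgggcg
Cdca3: cgtggagggaagTTTGAAactccgggcttt
All coordinates are those of GRCm38.p6, and the sequences are credited to RefSeq. GENCODE starts differ for some of these genes. All 30 bases of the Kif22, Cenpa, Bub3, Cdca5 and Cdca3 sites lie inside the GENCODE gene. The GENCODE gene of Cdca3 begins at 124829547, well upstream of its site, so nearness there holds for the RefSeq start only.

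Lower genes were found both with and without a CHR near the RefSeq start. The 23 measured genes with a CHR within 50 bases of the start had 18 lower and 5 higher. Their median log2 ratio was -0.31, and 47.3% of all genes were lower. The 9 without it were Ccnb1, Melk, Birc5, Mad2l1, Nuf2, Kif2c, Nusap1, Ckap2 and Mki67, and all 9 were lower, with a median of -0.48. Of these, Kif2c, Ckap2 and Mki67 hold a CHR further upstream in the window. Aurkb, Incenp and Kif20a, which had ratios above 1, have no window and are in neither count. These counts are few and carry no test.

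**Figure D3:**
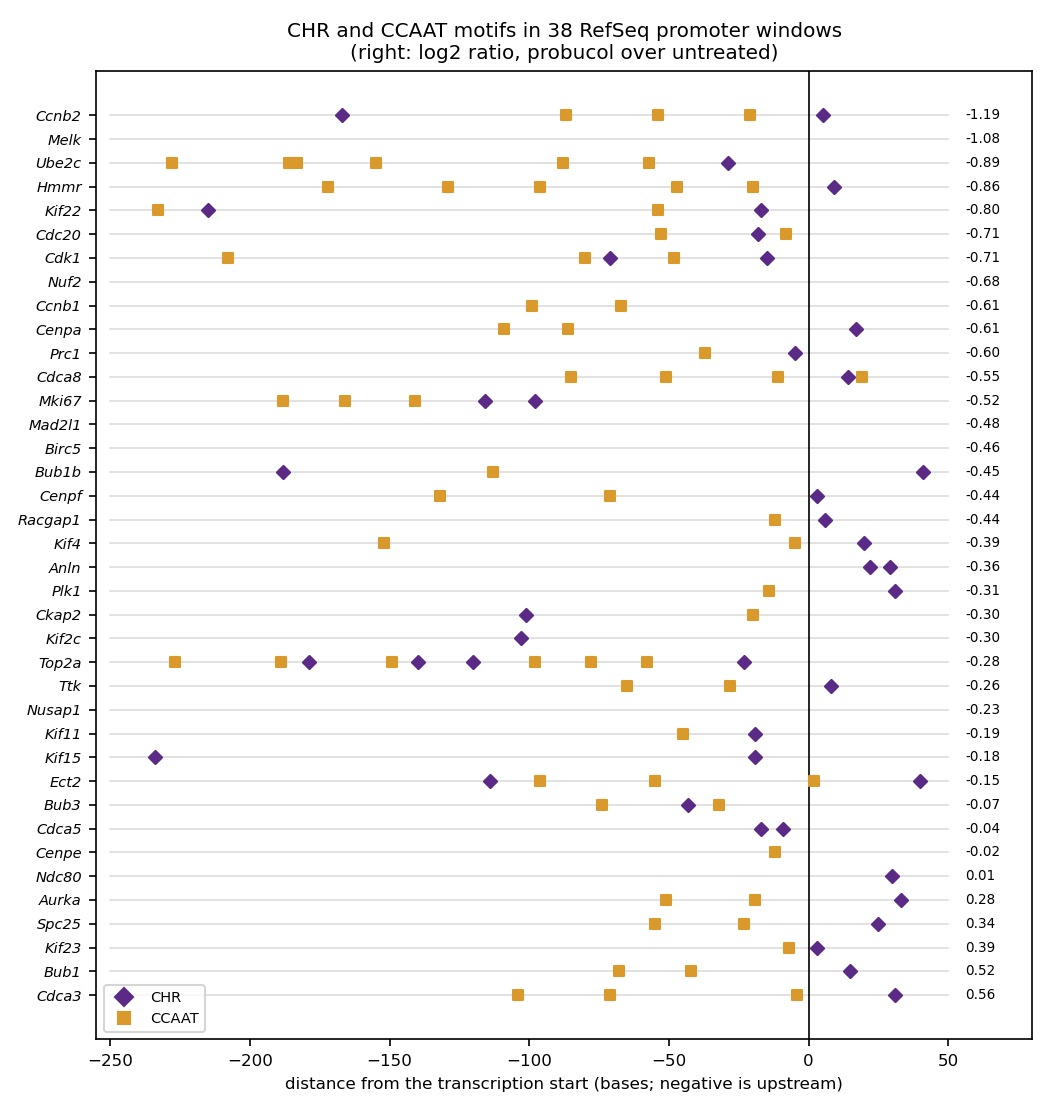
Positions of CHR (purple diamonds) and CCAAT (orange squares) motifs in the 38 RefSeq promoter windows, as distance in bases from the transcription start, with genes ordered from the lowest to the highest log2 ratio, printed at the right. CHR matches crowd around the start in 28 of the windows, from the top of the order to the bottom, and CCAAT matches lie mostly upstream of them.

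The cyclins and their kinase were lower with probucol as a group. Ccnb2, which encodes cyclin B2, stood at 6.09 FPKM in the probucol library and 15.1 FPKM in the untreated library, 2.48-fold lower (interval 1.90 to 3.25). It lies at chr9:70407692-70421547 on the minus strand. Ccnb1, the gene of cyclin B1, the main partner of CDK1 at mitotic entry, was at 6.09 and 9.80 FPKM, 1.61-fold lower (1.30 to 2.01). Cdk1 itself (chr10:69335146-69352938, minus strand) was at 2.46 and 4.67 FPKM, 1.90-fold lower (1.49 to 2.44). The upstream stretch of Cdk1 printed above holds 2 CHR copies. Ccna2 encodes cyclin A2, which acts from S phase on, and was the closest to equal of the 4, at 8.78 and 10.7 FPKM with a ratio of 0.824 (0.692 to 0.981). All 4 were lower, 3 of them at least 1.5-fold (47.3% and 5.53% of all genes), with a median log2 ratio of -0.66. Ccnb1 and Ccnb2 are among 4 of the 45 genes with a named pseudogene, and 11 of the 45 share exonic bases with another gene. How such fragments were assigned is not stated in the labels.

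The mitotic kinases were split. Melk, a kinase of dividing and stem-like cells (chr4:44300876-44364675, plus strand), was at 1.22 FPKM in the probucol library and 3.69 FPKM in the untreated library, 3.02-fold lower (2.03 to 4.64) from an estimated 33 and 101 fragments. Pbk, a mitotic kinase also called TOPK (chr14:65805837-65817822, plus strand), was at 1.46 and 4.10 FPKM, 2.80-fold lower (1.69 to 4.77) from 22 and 62 fragments. These were the lowest ratios of the 39 genes. The major regulators stood much closer. Plk1, which drives centrosome maturation and mitotic entry, was at 2.51 and 3.35 FPKM with a ratio of 0.749 (0.5 to 1.08). Aurka, the kinase of the spindle poles, was at 5.94 and 4.73 FPKM with a ratio of 1.26 (0.922 to 1.71). The intervals of Plk1 and Aurka include 1, so a difference was not detectable at this depth.

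In the chromosomal passenger complex, which corrects wrong attachments and later guides cytokinesis, 2 members were lower and 2 were higher. Of all genes, 47.3% were lower. Aurkb, the kinase of the complex, was nearly equal at 4.64 FPKM in the probucol library and 4.57 FPKM in the untreated library, a ratio of 1.02 (0.740 to 1.41). Incenp, the scaffold that activates it, was higher at 13.8 and 11.1 FPKM, and its ratio was 1.24 (1.08 to 1.44). The targeting subunits were lower. Birc5, which encodes survivin, was at 17 and 23.7 FPKM, 1.4-fold lower (1.21 to 1.62), and Cdca8, which encodes borealin, was at 9.47 and 14.4 FPKM, 1.52-fold lower (1.21 to 1.89).

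The 3 measured checkpoint genes were lower (47.3% of all genes). None of them was lower by 1.5-fold on the log2 scale used for the counts (5.53% of all genes). Mad2l1, whose protein MAD2 inhibits CDC20, was at 11.9 and 17 FPKM, 1.43-fold lower. Bub1b, which encodes BUBR1 of the same inhibitory complex, was at 2.17 and 3.35 FPKM, 1.54-fold lower. Bub3, at 108 and 113 FPKM, had a ratio of 0.955 (0.9 to 1.01) from 2139 and 2262 fragments. Bub3 was thus the highest of the 45 genes per length and among the closest to equal. Its protein binds both BUB1 and BUBR1 at the kinetochore.

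Of the 3 genes grouped under anaphase ubiquitination, Ube2c and Cdc20, which act with the anaphase-promoting complex, were lower. Cdca3, which was grouped with them, was higher. Ube2c encodes the enzyme that starts ubiquitin chains for the anaphase-promoting complex (chr2:164769898-164778822, plus strand). It was at 8.32 FPKM in the probucol library and 16.3 FPKM in the untreated library, 1.96-fold lower (1.44 to 2.71). Cdc20, the activator of that complex, was at 7.51 and 12.9 FPKM, 1.72-fold lower (1.36 to 2.18). Cdc20 shares exonic bases with Elovl1 (89.3 and 75.7 FPKM), and Ube2c with Tnnc2, which was at 0 in both libraries. Cdca3, an F-box-like protein that promotes the loss of the CDK1 inhibitor WEE1 (chr6:124829547-124833701, plus strand), was at 8.30 and 5.30 FPKM. Its ratio of 1.57 (1.19 to 2.04) was the highest of the 39 genes.

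Kinetochore genes were lower in 3 of 5 measured cases, a count near the 47.3% of all genes. Cenpa, the histone H3 variant that marks the centromere, was at 23.0 FPKM in the probucol library and 35.5 FPKM in the untreated library, 1.54-fold lower. The NDC80 complex, which grips microtubules with 4 subunits, was uneven. Nuf2 was at 1.46 and 2.95 FPKM, 2.02-fold lower (1.30 to 3.17), and Spc24 at 4.83 and 8.66 FPKM, 1.79-fold lower (1.28 to 2.55). Ndc80 was equal, at 8.85 and 8.82 FPKM with a ratio of 1 (0.810 to 1.25). Spc25 was at 7.51 and 5.71 FPKM, with a ratio of 1.32 (0.945 to 1.85). The intervals of the lower pair, Nuf2 and Spc24, do not meet those of the pair that stood at or above equal.

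Among the kinesins, the motors that build and move along the spindle, 1 of the 6 measured was at least 1.5-fold lower (5.53% of all genes). Kif22, a chromosome-arm motor, was at 7.24 FPKM in the probucol library and 13.3 FPKM in the untreated library, 1.84-fold lower (1.49 to 2.28). A named pseudogene of Kif22 exists. Kif20a and Kif23, the motors of the central spindle in cytokinesis, were higher. Kif20a was at 3.46 and 2.41 FPKM, with a ratio of 1.44 (1.05 to 1.97), and Kif23 at 2.87 and 1.95 FPKM, a ratio of 1.47 (1.05 to 2.06). Kif20a shares exonic bases with Cdc23, which was at 33.7 and 33.5 FPKM. The motors that push the spindle poles apart were close to equal, Kif11 at 2.2 and 2.64 FPKM and Kif15 at 1.46 and 1.77 FPKM. Kif2c, which takes microtubules apart at the centromere, was at 0.956 and 1.41 FPKM. The intervals of these last 3 all include 1.

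Genes of proteins that bind spindle microtubules were lower in 4 of 4 cases (47.3% of all genes). Hmmr, the hyaluronan-mediated motility receptor, which also acts at spindle poles, was at 1.27 FPKM in the probucol library and 3.12 FPKM in the untreated library, 2.46-fold lower (1.74 to 3.56). Tpx2, the activator of Aurora A, was at 1.65 and 2.42 FPKM, with a ratio of 0.680 (0.490 to 0.939). Nusap1 was at 2.04 and 2.56 FPKM and Ckap2 at 1.13 and 1.63 FPKM, and both intervals include 1.

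The cytokinesis genes measured, 3 in number, were all lower (47.3% of all genes). Prc1, which bundles the central spindle, was at 2.82 and 4.78 FPKM, 1.70-fold lower. Its exons overlap those of Rccd1 (11.5 and 11.8 FPKM). Racgap1, a partner of Kif23 in the centralspindlin complex, was at 13.2 and 18.2 FPKM, 1.38-fold lower. Ect2, the exchange factor that switches on RhoA, was at 1.18 and 1.43 FPKM with an interval that includes 1. Racgap1 and Kif23, whose proteins form 1 complex, thus stood on opposite sides of equal, with intervals of 0.630 to 0.829 and 1.05 to 2.06.

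All 3 genes of chromosome structure were lower (47.3% of all genes), with a median log2 ratio of -0.28. Mki67, the gene of the Ki-67 protein that coats mitotic chromosomes and serves as a marker of dividing cells, was at 1.51 FPKM in the probucol library and 2.60 FPKM in the untreated library, 1.72-fold lower (1.39 to 2.11). Top2a, which untangles sister chromatids, was at 6.46 and 8.05 FPKM, with a ratio of 0.803 (0.693 to 0.934). Cdca5, which encodes sororin, the protector of cohesion, was at 3.07 and 3.17 FPKM, with a ratio of 0.967 (0.650 to 1.41). Its site printed above holds 2 CHR copies.

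**Figure D4:**
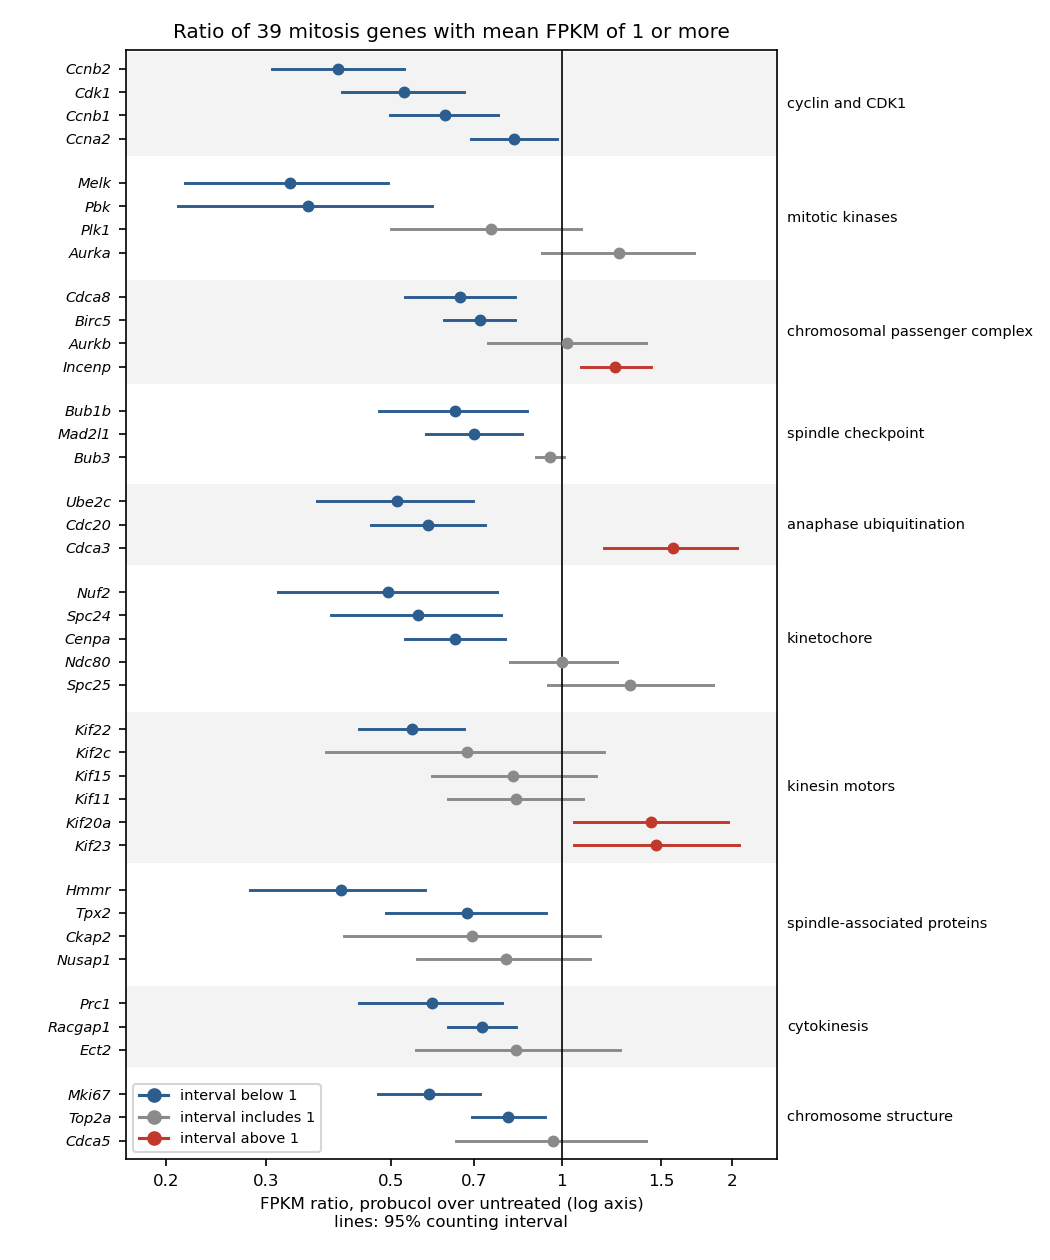
FPKM ratio of probucol over untreated (log axis) for the 39 mitosis genes at a mean FPKM of 1 or more, grouped by role, with 95% counting intervals as lines. The intervals of 22 genes lie below 1 (blue), those of 4 genes above 1 (red) and those of 13 genes include 1 (grey), and the cyclin group lies wholly below 1.

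Below a mean of 1 FPKM were 6 genes. Bub1 was at 1.02 FPKM in the probucol library and 0.411 FPKM in the untreated library, from 32 and 13 fragments. Ttk, the kinase MPS1 of the checkpoint, was at 0.561 and 0.871 FPKM, from 14 and 23 fragments. The other 4 were the large kinetochore proteins Cenpe (0.633 and 0.656 FPKM) and Cenpf (0.450 and 0.970 FPKM), the chromokinesin Kif4 (0.356 and 0.776 FPKM) and the contractile ring protein Anln (0.0962 and 0.402 FPKM). Thus 5 of the 6 were lower and Bub1 was higher. Bub1 and Ttk, both with a mean of 0.716 FPKM, were just outside the limit of 1 FPKM, and Kif2c (1.18) and Ect2 (1.30) were just inside it.

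Other genes of mitosis and G2, from a separate list, were mixed, with 25 of 43 lower (58.1%, against 47.3% of all genes). At least 1.5-fold lower were 7 and at least 1.5-fold higher were 0, where the shares of all genes were 5.53% and 5.99%. The median log2 ratio was -0.22. Shcbp1, a partner of centralspindlin, was at 1.04 FPKM in the probucol library and 4.41 FPKM in the untreated library, a ratio of 0.236 (0.137 to 0.386). Ccnf, which encodes cyclin F, was at 0.902 and 3.73 FPKM, Nek2 at 0.335 and 1.90 FPKM, and Neil3 at 0.539 and 1.95 FPKM. Of the core subunits and partners of the anaphase-promoting complex, 11 of 16 were lower (47.3% of all genes), with a median of -0.12. Of these 16, 1 was at least 1.5-fold lower, a share near the 5.53% of all genes. Those with the largest ratios in either direction were Anapc15 (19.3 and 33.5 FPKM), Anapc13 (109 and 162 FPKM), Cdc16 (40.6 and 28.8 FPKM) and Anapc7 (15.5 and 19.5 FPKM).

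Genes of the G1/S transition and DNA replication, which act before mitosis, were lower in 27 of 35 cases, 5 of them at least 1.5-fold (47.3% and 5.53% of all genes), with a median of -0.19. Gins2, a subunit of the replicative helicase, was at 3.50 FPKM in the probucol library and 10.5 FPKM in the untreated library, a ratio of 0.335 (0.272 to 0.410). Mcm3 was at 30 and 47.3 FPKM, Cdt1 at 16.4 and 26 FPKM, and Tk1 at 5.53 and 9.03 FPKM. Other genes of the list differed less: Mcm2 had a ratio of 1.03 (0.939 to 1.13), Pcna of 1.15 (1.07 to 1.23) and Rrm2 of 0.794 (0.684 to 0.917).

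The genes that regulate mitotic transcription were not lower as a list, with 5 of 17 lower (47.3% of all genes) and a median log2 ratio of 0.12. Foxm1, the factor that drives G2/M genes, was at 1.74 FPKM in the probucol library and 1.51 FPKM in the untreated library, and its interval (0.814 to 1.62) includes 1. Mybl2, which encodes B-MYB of the MuvB complex, was at 2.73 and 3.37 FPKM, also with an interval that includes 1 (0.610 to 1.07). Lin9, a MuvB subunit, was at 6.32 and 3.92 FPKM, with a ratio of 1.61 (1.26 to 2.04). The others with the largest ratios were Tfdp2 (3.58 and 2.02 FPKM), E2f6 (16.7 and 22.9 FPKM) and Nfyb, a subunit of NF-Y (36.5 and 28.8 FPKM).

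Markers of other cells differed between the libraries beside the mitosis genes. Erythroid genes were lower with probucol: 11 of 13 measured were lower, 10 of them at least 1.5-fold (47.3% and 5.53% of all genes), and the list summed to 399 FPKM in the probucol library and 1234 FPKM in the untreated library. The sums were mostly globin, with Hbb-b1 at 48.9 and 312 FPKM, Hba-a2 at 106 and 378, Hbb-b2 at 63.7 and 199, and Hba-a1 at 55.3 and 158 FPKM; fragments of these near-identical genes could have been split between copies. Nucleated precursors of red cells divide, and Klf1, a transcription factor of these cells, was at 0.983 and 2.41 FPKM, from 13 and 32 fragments. Gata1, another of their transcription factors, named after its value was seen, went the other way and was the 1 gene of the list at least 1.5-fold higher, with a log2 ratio of 0.63. The transferrin receptor gene Tfrc, which dividing T cells also express, was at 7.29 and 6.07 FPKM. The part of erythroid RNA in the lower mitosis genes was not tested.

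B cell genes went the other way. Of 8 measured, 7 were higher with probucol, all 7 by at least 1.5-fold (5.99% of all genes), and the list summed to 73.4 and 29.4 FPKM, with Cd22 at 4.38 and 0.762, Cd79b at 19.0 and 7.46 and Ms4a1 at 7.75 and 2.75 FPKM. Pax5, a defining transcription factor of B cells, was at 0 in both libraries. Neutrophil and precursor genes summed to 1085 and 966 FPKM, with 9 of 11 higher (52.7% of all genes). Among the higher were Elane (12 and 2.80 FPKM) and Mpo (10.9 and 4.23 FPKM) of dividing precursors. Ctsg, on the same list, was lower at 0.884 and 2.01 FPKM, from 7 and 16 fragments, and its interval (0.154 to 1.14) includes 1. Natural killer genes summed to 57.6 and 54.3 FPKM, with 4 of 6 lower (47.3% of all genes). Gzma was at 0.150 and 3.28 FPKM, from 1 and 22 fragments, Klrd1 at 1.22 and 6.22 FPKM, and Klra8 at 0 in both. Prf1, with a mean of 43.1 FPKM, and Klrb1c, both named after their values were seen, were higher. Their log2 ratios were 0.45 and 0.13. The list sums were 191 and 182 FPKM for macrophages, 80.6 and 71.1 FPKM for germinal centre B cells, and 5.52 and 2.93 FPKM for megakaryocytes and platelets. For dendritic cells they were 5.76 and 6.53 FPKM, with Xcr1 at 0.992 and 1.86 FPKM, and the 5 plasma cell genes had a median log2 ratio of 0.28. The part of these cells in the ratios of mitosis genes was not tested.

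**Figure D5:**
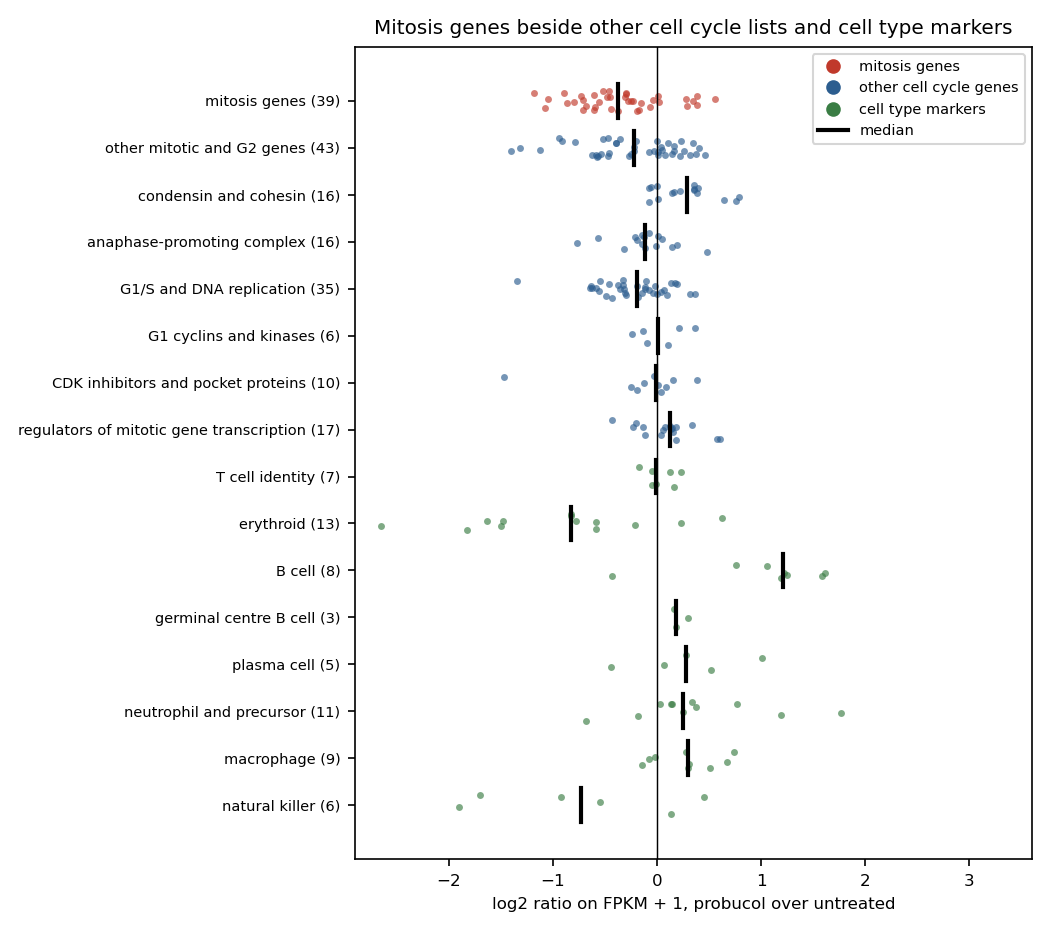
Log2 ratio on FPKM + 1 (probucol over untreated) of single genes (points) and their median (black bar) for the 39 mitosis genes (red), other cell cycle lists (blue) and cell type markers (green), with the number of genes in brackets and only lists of at least 3 measured genes. The medians of the mitosis genes (-0.37) and the erythroid list (-0.82) lie to the left of 0, and that of the B cell list (1.21) lies to the right.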

How the data were processed

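Per the file headers, the deposited tables hold FPKM, with 1 row for each gene symbol. The submitters' processing notes list, without role or order, TopHat2 2.1.1, Bowtie2 and Cuffdiff 2.2.1, and mm10 as the build. The labels describe total RNA from a miRNeasy Micro Kit and full-length cDNA by SMART-Seq HT with a Nextera library, which keeps no molecular identifiers or strand as far as stated. For gene annotation, read filters and further scaling, the sources used here give nothing.

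The 45 genes, their roles and the other lists were chosen with earlier results of these data known. Log2 ratios (probucol over untreated) were computed on FPKM + 1 for genes with a mean FPKM of 1 or more; folds of single genes are plain FPKM ratios. All genes passing this limit are named by role, those under it in 1 passage, and from each other list up to 4 with the largest ratio in either direction, plus fixed genes such as Mcm2, Pcna and Foxm1; some of the fixed genes are not reported here.

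Low FPKM values fall on steps worth 1 fragment (0.101 FPKM with probucol and 0.100 untreated at 1 kb, after 210 bp are subtracted from the length). Of low values of genes with 1 annotated transcript, 80.5% and 79.7% lay within 0.1 of a whole fragment, where 20% would by chance. For genes with several transcripts, the length of the transcript that GENCODE release M21 pairs with RefSeq gave 66.6% and 69.7%, the longest gave 61.1% and 63.7%, and the planned median length gave 23.0% and 22.7%. The RefSeq-paired length was therefore used, a choice made after seeing the data. Counting intervals (95%, Clopper-Pearson) rest on these fragments, and for genes with several transcripts they are approximate. At 1 FPKM a 2 kb transcript has 17.7 fragments in the probucol library and 17.9 in the untreated library.

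The calculation was tested on simulated data with known ratios. Promoter windows are RefSeq's, 1 per gene (the most upstream). Alternatives were other pseudocounts (0.1 and 5), other limits on low values, rescaling, centring, removal of the trend on length and GC content, and leaving out genes that overlap another. Python 3.11.15, numpy 2.4.6, pandas 2.3.3, scipy 1.17.1 and matplotlib 3.10.9 were used.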

Additional observations from a re-analysis of the deposited data

How the results depend on the processing

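The median log2 ratio of the mitosis genes was below 0 under every alternative run, from -0.49 (pseudocount 0.1) to -0.19 (pseudocount 5). With a pseudocount of 5, 2 genes were at least 1.5-fold lower, against 1.88% of all genes; the added constant shrinks ratios of low genes by construction. With a pseudocount of 0.1, 1 gene was at least 1.5-fold higher, against 8.7% of all genes. At a mean FPKM of 5 or more, 14 of 19 genes were lower and 7 at least 1.5-fold lower. The shares of all genes were 48.3% and 3.38%. Without Bub3 the summed FPKM ratio was 0.725. Rescaling to equal sums left 11 genes at least 1.5-fold lower (5.21% of all genes) and put the median of all genes at 0.04. Of 156 values of single genes under alternatives, 148 stayed within the counting interval, and the 8 others all came from the pseudocount of 5. Ndc80, nearly equal at 0.01, was at -0.01 when centred on the median gene, and no gene at least 1.5-fold lower changed sign. Without the genes that overlap another, chosen after seeing the data, 22 of 29 were lower (47.3% of all genes), with a median of -0.37. Counting intervals depended on the transcript length: with the median length, 17 lay below 1 and 1 above (Kif20a), and with the longest, 23 and 4. No paired analysis was possible because each group has 1 library, so no library could be left out either. Genes under about 20 fragments, such as Anln with 4 and 18, allow only wide intervals.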

Other observations

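Condensin and cohesin are the ring complexes that compact chromosomes and hold sister chromatids together. Of their 16 measured genes, 12 were higher with probucol and 3 at least 1.5-fold higher (52.7% and 5.99% of all genes). The median log2 ratio was 0.29. Of the 15 with a counting interval, 9 lay above 1 (29.0% of all genes) and 0 below 1 (24.2%). Nipbl, the cohesin loader, was at 16.2 FPKM in the probucol library and 8.98 FPKM in the untreated library, a ratio of 1.80 (1.66 to 1.97). The condensin genes Ncapd2 (7.92 and 4.27 FPKM), Smc2 (7.88 and 4.70 FPKM) and Ncapd3 (9.66 and 7.13 FPKM) were also higher. After removing the trend with length and GC content over all genes, the median of the list was 0.15.

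Cyclins and kinases of G1 and the CDK inhibitors showed no common direction, with medians of 0.01 over 6 genes and -0.01 over 10. Cdkn2c, which encodes the CDK4 and CDK6 inhibitor p18, was at 6.01 FPKM in the probucol library and 18.4 FPKM in the untreated library, a ratio of 0.326 (0.256 to 0.413). Its ratio was thus like those of Melk and Pbk. Cdkn1a, the p53 target p21, was at 2.36 and 2.99 FPKM, Cdkn1b at 7.76 and 7.91 FPKM, and Rb1 at 16.8 and 12.7 FPKM, and Cdkn2d had a ratio of 0.872. Among the G1 genes, Ccnd2 had a ratio of 1.29, and Cdk4 was at 144 and 171 FPKM, Cdc25a at 11.2 and 9.58 FPKM and Cdk6 at 7.53 and 8.39 FPKM.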
